A study of Mus musculus with 15 samples.

Results

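The mitosis and kinetochore genes described here are 54 genes that drive chromosomes through cell division. The rule that chose them is a list of gene names and uses no measured value, but the list was drawn up with earlier results of these data known. Each of the 54 had its own row among the 56748 genes of the deposited tables. They were followed in 15 RNA-seq libraries of mouse T helper 2 (Th2) cells, the CD4+ T cells that make interleukin 4, 5 and 13. Stimulated cKO cells (4 libraries) were VEC-Cre;Asb2fl/fl cells given coated anti-CD3ε and soluble anti-CD28 for 24 h. Stimulated control cells (5 libraries) were Asb2fl/fl cells given the same antibodies. Non-stimulated cKO cells and non-stimulated control cells (3 libraries each) were VEC-Cre;Asb2fl/fl and Asb2fl/fl cells that received no further antibodies. Female mice gave the starting cells, naive CD4+ T cells isolated from spleen with a kit, and all of them had already been activated once on anti-CD3ε in Th2-polarizing cytokines and then grown in interleukin 2 and interleukin 4, so that the non-stimulated cells were cultured, cytokine-fed cells and not naive ones. Both genotypes carried loxP-flanked Asb2. Asb2 encodes the substrate-recognition subunit of a cullin E3 ubiquitin ligase, and the Cre is driven by the VE-cadherin promoter. That promoter works in endothelial cells and in early blood-forming cells, so that the deletion is not specific to T cells.

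Entry into mitosis is set off by cyclin-dependent kinase 1 bound to a mitotic cyclin, once phosphatases of the CDC25 family have removed inhibitory phosphates. Kinetochores built on the centromeres then capture spindle microtubules, the spindle assembly checkpoint delays the anaphase-promoting complex until they have done so, and kinesins and the chromosomal passenger complex move the chromosomes and split the cell. Transcripts of most of these genes are made mainly in the late cell cycle, under the MuvB, B-MYB and FOXM1 factors, so that in a T cell culture their RNA is commonly read as a sign of division.

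Each library held between 17.1 and 24.2 M (mega) estimated counts. Levels are CPM, the usual depth-scaled counts, on library sizes corrected with TMM factors, and log2 fold changes are given ± SE. A gene was called, and is said to have risen or fallen, at a Benjamini-Hochberg adjusted p under 0.05 over 15619 genes tested with edgeR's quasi-likelihood test. All 54 genes passed the filter on low counts, and the lowest count of any of them in any library was 139. T cell markers were abundant, with the summed level of Cd3d, Cd3e, Cd3g, Cd4, Cd28 and Trac at 1398 CPM or more in each library. Markers of other cells summed to at most 28.8 CPM for CD8 T cells, 6.97 CPM for B cells, 22.6 CPM for myeloid cells and 18.7 CPM for NK cells, and Lyz2, Hbb-bs and Hba-a1 had no count in any library. The targeted gene Asb2 (ENSMUSG00000021200) was at 9.58, 9.59, 9.44 and 9.36 CPM in stimulated cKO cells, against 34.1, 38.0, 32.3, 31.2 and 31.9 CPM in stimulated control cells, a log2 fold change of -1.82 ± 0.18 (edgeR adjusted p = 3.4e-04). Without stimulation it was at 12.7, 22.7 and 22.1 CPM in cKO cells, against 34.7, 25.6 and 49.7 CPM in control cells, which did not overlap but was not called (edgeR adjusted p = 1).

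Stimulation through the T cell receptor was the first comparison, asked in each genotype. Many of the mitosis genes fell, and none rose. In cKO cells 29 of the 54 genes fell, against 27.1% of all genes tested called lower and 26.7% called higher. In control cells 30 of the 54 fell, against 25.2% called lower and 25.4% called higher among all genes tested. The median log2 fold change of the 54 genes was -0.34 in cKO cells and -0.36 in control cells, while that of all genes tested was -0.0087 and 0.0023. The scaling with TMM factors keeps the median of all genes tested near 0 by construction. With no scaling beyond total counts that median was -0.091 in cKO cells and 0.0044 in control cells, and that of the 54 genes -0.42 and -0.36. The 2 comparisons share no library, but they come from 1 fit over all 15 libraries, with a common scaling and estimate of the spread. Both called 28 genes lower, 1 (Aspm) was called in cKO cells alone, 2 (Cdk1 and Smc2) in control cells alone, and 23 in neither. How many of all genes tested were called lower in both genotypes was not counted, so the overlap is not shown to be particular to these genes. Levels in CPM are relative to the other RNA of a library. In these bulk libraries a smaller share of dividing cells, less of this RNA per cell and more of other RNA cannot be told apart. With limma on log2(TPM + 0.1) the control count was 13 in place of 30. On that scale the median log2 fold change of all genes tested in control cells was 0.14 and that of the 54 genes -0.21, and 2108 genes were called lower and 3754 higher, in place of 3936 and 3961. In cKO cells the medians were -0.094 and -0.51, with 27 of the 54 genes lower.

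The 54 genes together took 0.889, 0.928, 0.660 and 0.793% of all counts in stimulated cKO cells, against 1.34, 1.25 and 1.15% in non-stimulated cKO cells. In control cells they took 0.827, 0.865, 0.903, 0.879 and 0.773% of counts with stimulation, against 1.30, 1.28 and 1.06% without it. Every stimulated library lay below every non-stimulated library of either genotype. The groups did not overlap, on the lower side, for 28 of the 54 genes in cKO cells and 31 in control cells, against 27.2% and 24.2% of all genes tested, and for none on the higher side, against 26.8% and 23.8%. The cell type markers also moved with stimulation: 5 of the 6 T cell markers fell in each genotype, all except Cd4. Summed myeloid markers were at 0.753 to 2.72 CPM in stimulated cKO cells, against 11.6 to 18 CPM in non-stimulated cKO cells, and at 1.12 to 2.40 CPM in stimulated control cells, against 11.3 to 22.6 CPM in non-stimulated control cells. Summed NK markers were at 0.591 to 2.49 CPM in stimulated cKO cells, against 3.82 to 6.58 CPM in non-stimulated cKO cells, and at 0.500 to 2.29 CPM in stimulated control cells, against 3.10 to 18.7 CPM in non-stimulated control cells. Mitochondrially encoded RNA took 4.94 to 9.43% of counts in stimulated libraries, against 4.36 to 5.15% in non-stimulated ones. The part of these shifts in the mitosis result was not tested.

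**Figure D1:**
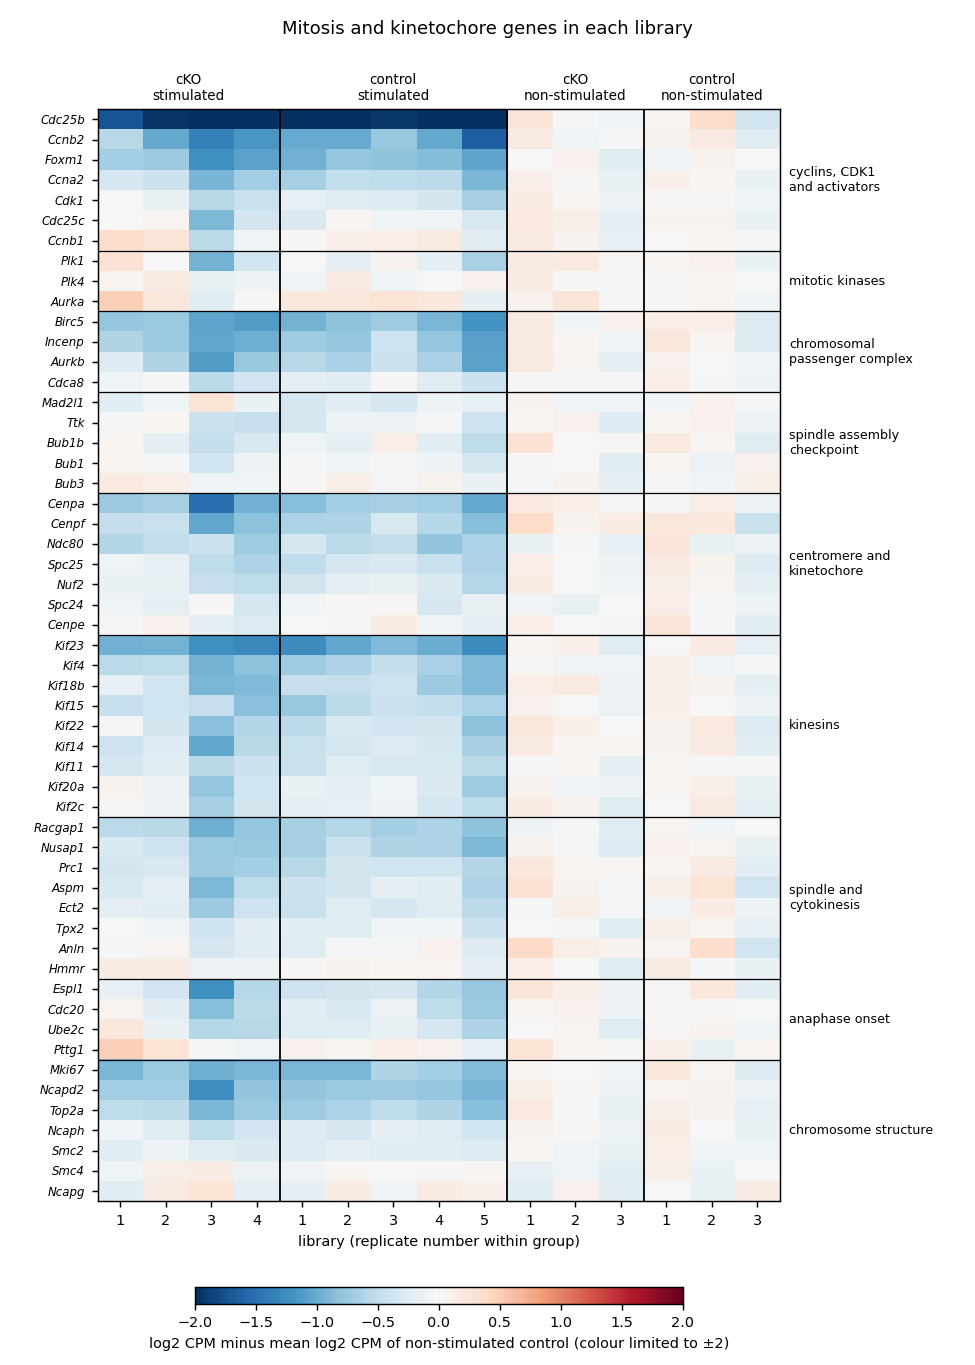
Each row is a mitosis gene, grouped by role, and each column a library; colour is log2 CPM minus the mean log2 CPM of the 3 non-stimulated control libraries (blue lower, red higher, limited to ±2). The left 9 columns, the stimulated libraries, are mostly blue, with Cdc25b the darkest row, while rows such as Aurka, Ccnb1 and Smc4 stay pale.

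The response was uneven, and the promoters of the genes at both ends are shown for that reason. Many late cell cycle genes carry a cell cycle genes homology region (CHR), here searched as TTTGAA, its reverse complement TTCAAA, or the palindrome TTTAAA, close to CCAAT boxes, here searched as CCAAT or its reverse complement ATTGG. A CHR and a CCAAT box can share at most 1 base. RefSeq promoter windows of build GRCm38.p6, from 250 bases before to 50 bases after the start site, were at hand for 45 of the 54 genes. A CHR was found in 38 of these 45 (84.4%), against 23.1% of the 10238 tested genes with a window, and 33 of the 45 (73.3%) held one within the last 100 bases, against 6.4%. A CCAAT box was found in 34 (75.6%), against 43.5%, and both motifs in 32 (71.1%), against 11%. A CHR was found in 20 of 24 (83.3%) of the genes that fell in both genotypes and in 15 of 18 (83.3%) of those called in neither. A match of letters is a description and does not show that a factor binds there.

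The windows below belong to the genes with the 4 lowest log2 fold changes in control cells among those with a window, and to the 2 genes with the highest, written 5′ to 3′ in the direction of transcription. CHR and CCAAT letters are in capitals. Cdc25b lies at chr2:131186698-131186997 (plus strand), Kif23 at chr9:61946750-61947049 (minus), Ccnb2 at chr9:70421505-70421804 (minus), Birc5 at chr11:117848987-117849286 (plus), Ccnb1 at chr13:100786437-100786736 (minus) and Aurka at chr2:172370521-172370820 (minus).
Cdc25b: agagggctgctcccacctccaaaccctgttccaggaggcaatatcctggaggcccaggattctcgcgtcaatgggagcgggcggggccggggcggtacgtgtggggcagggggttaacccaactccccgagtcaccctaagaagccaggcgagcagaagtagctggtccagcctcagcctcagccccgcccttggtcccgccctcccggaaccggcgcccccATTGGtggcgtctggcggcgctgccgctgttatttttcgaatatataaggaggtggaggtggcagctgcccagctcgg
Kif23: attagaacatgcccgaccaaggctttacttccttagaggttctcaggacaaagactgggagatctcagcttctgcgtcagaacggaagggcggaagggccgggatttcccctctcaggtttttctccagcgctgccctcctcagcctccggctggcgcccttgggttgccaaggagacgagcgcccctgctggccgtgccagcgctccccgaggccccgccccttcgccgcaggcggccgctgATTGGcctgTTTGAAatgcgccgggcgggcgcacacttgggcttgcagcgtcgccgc
Ccnb2: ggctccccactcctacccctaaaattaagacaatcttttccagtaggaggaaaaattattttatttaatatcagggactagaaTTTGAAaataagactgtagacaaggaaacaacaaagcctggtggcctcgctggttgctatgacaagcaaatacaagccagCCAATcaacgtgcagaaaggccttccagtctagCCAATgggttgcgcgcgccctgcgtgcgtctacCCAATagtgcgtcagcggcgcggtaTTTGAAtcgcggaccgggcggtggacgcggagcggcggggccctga
Birc5: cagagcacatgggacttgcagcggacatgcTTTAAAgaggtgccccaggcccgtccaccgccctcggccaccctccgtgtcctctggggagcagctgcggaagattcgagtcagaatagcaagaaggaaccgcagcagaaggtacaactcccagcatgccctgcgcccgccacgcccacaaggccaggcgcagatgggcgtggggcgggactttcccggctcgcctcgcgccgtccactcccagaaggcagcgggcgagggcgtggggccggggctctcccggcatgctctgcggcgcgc
Ccnb1: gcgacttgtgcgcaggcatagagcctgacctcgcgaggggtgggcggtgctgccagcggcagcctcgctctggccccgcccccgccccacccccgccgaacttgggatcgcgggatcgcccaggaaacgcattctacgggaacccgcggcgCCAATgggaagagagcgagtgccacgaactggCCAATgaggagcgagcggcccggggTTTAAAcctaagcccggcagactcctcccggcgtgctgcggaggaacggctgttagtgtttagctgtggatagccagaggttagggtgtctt
Aurka: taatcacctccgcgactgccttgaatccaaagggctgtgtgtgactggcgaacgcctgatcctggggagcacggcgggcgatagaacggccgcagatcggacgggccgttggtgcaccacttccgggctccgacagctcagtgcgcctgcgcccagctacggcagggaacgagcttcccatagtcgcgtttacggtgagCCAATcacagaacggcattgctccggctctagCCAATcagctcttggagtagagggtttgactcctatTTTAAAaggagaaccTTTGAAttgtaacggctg
Distances are those of a motif's first base. Ccnb2 has a CHR 5 bases after the start site and another 167 bases before it, with CCAAT boxes 87, 54 and 21 bases before it. Its relative Ccnb1 has a CHR 42 bases before the start site and CCAAT boxes 99 and 67 bases before it. Cdc25b, with the lowest log2 fold change of all, held a CCAAT box and none of the CHR letters searched. Kif23 and Ccnb2, the next lowest in control cells, held both motifs, as did Aurka, with the highest in control cells.

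Among the cyclins, CDK1 and their activators, 4 of 7 fell in cKO cells and 5 of 7 in control cells. For this and each role below, the shares of all genes tested called lower were 27.1% in cKO cells and 25.2% in control cells. The roles hold few genes, and differences between them were not tested. Cdc25b (ENSMUSG00000027330), the phosphatase that activates cyclin-dependent kinases on the way into mitosis, was at 78.3, 66.1, 45.8 and 51.6 CPM in stimulated cKO cells, against 305, 253 and 249 CPM in non-stimulated cKO cells. In control cells Cdc25b was at 63.2, 62.4, 67.5, 55.0 and 48.5 CPM with stimulation, against 268, 330.1 and 196 CPM without it. The stimulated and non-stimulated libraries were far apart in both genotypes. Its log2 fold change was -2.15 ± 0.19 in cKO cells (edgeR adjusted p = 1.6e-07) and -2.16 ± 0.17 in control cells (adjusted p = 6.8e-08), the lowest of the 54 genes in each. Ccnb1 (ENSMUSG00000041431), the main mitotic cyclin, was at 166, 155, 89.2 and 121 CPM in stimulated cKO cells, against 147, 135 and 116 CPM in non-stimulated cKO cells. In control cells Ccnb1 was at 132, 139, 142, 147 and 112 CPM with stimulation, against 128, 133 and 126 CPM without it. These values overlapped, and the log2 fold changes of 0.0071 ± 0.16 in cKO cells (95% interval -0.33 to 0.34) and 0.05 ± 0.15 in control cells (95% interval -0.27 to 0.38) were not called. The product of Ccnb1 acts bound to cyclin-dependent kinase 1. Cdk1 (ENSMUSG00000019942), the gene of that kinase, was at 89.8, 80.8, 60.9 and 66.2 CPM in stimulated cKO cells, against 99.99, 92.8 and 83.6 CPM in non-stimulated cKO cells. In control cells Cdk1 was at 80.2, 76.0, 75.2, 69.9 and 57.0 CPM with stimulation, against 91.5, 91.4 and 87.0 CPM without it. Its log2 fold change was -0.31 ± 0.13 in cKO cells (edgeR adjusted p = 0.051, not called) and -0.33 ± 0.12 in control cells (adjusted p = 0.032). The control libraries did not overlap, the cKO libraries did, and the control call was made under 16 of 25 settings.

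Foxm1 (ENSMUSG00000001517), a transcription factor of late cell cycle genes, was at 89.6, 87.4, 61.5 and 68.2 CPM in stimulated cKO cells, against 143, 153 and 122 CPM in non-stimulated cKO cells. In control cells Foxm1 was at 73.6, 84.6, 82.3, 79.0 and 69.2 CPM with stimulation, against 138, 151 and 143 CPM without it. The groups were separate in each genotype, and Foxm1 fell, with a log2 fold change of -0.86 ± 0.12 in cKO cells (edgeR adjusted p = 1.3e-05) and -0.89 ± 0.11 in control cells (adjusted p = 4.8e-06). Ccna2, the cyclin of S phase and early mitosis, also fell in both genotypes, with a log2 fold change of -0.58 ± 0.13 in cKO cells and -0.61 ± 0.12 in control cells. Cdc25c, another CDC25 phosphatase, was not called in either (log2 fold change -0.31 ± 0.17 in cKO cells and -0.14 ± 0.17 in control cells).

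None of the 3 mitotic kinases outside the passenger complex was called in either genotype, against 27.1% (cKO) and 25.2% (control) of all genes tested called lower. Plk1 (ENSMUSG00000030867), a kinase of centrosomes, kinetochores and cytokinesis, was at 82.6, 67.9, 34.9 and 51.1 CPM in stimulated cKO cells, against 76.4, 77.3 and 68.5 CPM in non-stimulated cKO cells. In control cells Plk1 was at 67.4, 59.2, 70.9, 58.8 and 43.0 CPM with stimulation, against 70.3, 71.3 and 61.3 CPM without it. The spread among stimulated libraries was wide, and the groups overlapped (log2 fold change -0.32 ± 0.22 in cKO cells, 95% interval -0.79 to 0.15; -0.18 ± 0.21 in control cells, 95% interval -0.63 to 0.28). Aurka (ENSMUSG00000027496), the kinase of spindle poles, was at 83.6, 70.8, 50.9 and 61.3 CPM in stimulated cKO cells, against 63.7, 71.9 and 59.1 CPM in non-stimulated cKO cells. In control cells Aurka was at 70.4, 70.8, 72.9, 70.0 and 53.0 CPM with stimulation, against 61.2, 62.8 and 57.0 CPM without it. It had the highest log2 fold change of the 54 genes in control cells, 0.16 ± 0.13 (95% interval -0.12 to 0.44), and 0.04 ± 0.14 in cKO cells. Plk4, which governs centriole duplication, had log2 fold changes of -0.05 ± 0.09 in cKO cells and 0.02 ± 0.09 in control cells.

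The chromosomal passenger complex, which corrects faulty kinetochore attachments and later acts at the midzone, had 3 of its 4 members lower in both genotypes. Birc5 (ENSMUSG00000017716), survivin, was at 60.4, 61.8, 49.6 and 47.8 CPM in stimulated cKO cells, against 117, 99.6 and 109.9 CPM in non-stimulated cKO cells. In control cells Birc5 was at 53.6, 58.2, 62.9, 54.7 and 45.2 CPM with stimulation, against 114, 114 and 85.4 CPM without it. No stimulated library reached a non-stimulated one, and Birc5 fell, with a log2 fold change of -0.99 ± 0.13 in cKO cells (edgeR adjusted p = 4.4e-06) and -0.92 ± 0.12 in control cells (adjusted p = 5.0e-06). Aurkb (ENSMUSG00000020897), the kinase of the complex, was at 79.8, 62.7, 44.2 and 56.7 CPM in stimulated cKO cells, against 109, 99.2 and 83.3 CPM in non-stimulated cKO cells. In control cells Aurkb was at 64.9, 60.7, 70.7, 61.2 and 45.5 CPM with stimulation, against 101, 94.9 and 90.9 CPM without it. Aurkb fell, with a log2 fold change of -0.67 ± 0.16 in cKO cells (edgeR adjusted p = 0.0023) and -0.66 ± 0.15 in control cells (adjusted p = 0.0019). Incenp, the scaffold of the complex, fell, with a log2 fold change of -0.88 ± 0.14 in cKO cells and -0.75 ± 0.13 in control cells. Cdca8 (ENSMUSG00000028873), borealin, was at 77.6, 81.2, 57.5 and 62.9 CPM in stimulated cKO cells, against 83.9, 81.4 and 80.2 CPM in non-stimulated cKO cells. In control cells Cdca8 was at 72.7, 70.5, 84.0, 69.7 and 61.1 CPM with stimulation, against 90.5, 80.7 and 76.7 CPM without it. These values lay closer together, and Cdca8 was not called (log2 fold change -0.23 ± 0.12 in cKO cells and -0.21 ± 0.11 in control cells).

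None of the 5 genes of the spindle assembly checkpoint was called in either genotype, against 27.1% (cKO) and 25.2% (control) of all genes tested called lower. Mad2l1 (ENSMUSG00000029910), which encodes the MAD2 protein that inhibits CDC20, was at 132, 145, 185 and 139 CPM in stimulated cKO cells, against 160.1, 145 and 145 CPM in non-stimulated cKO cells. In control cells Mad2l1 was at 121, 132, 121, 143 and 137 CPM with stimulation, against 148, 163 and 148 CPM without it. Stimulated cKO replicate 3 stood above all other libraries, while stimulated control libraries were all below the non-stimulated ones. Its log2 fold change was 0.0029 ± 0.11 in cKO cells (95% interval -0.22 to 0.22) and -0.23 ± 0.10 in control cells (95% interval -0.44 to -0.02). Bub3 (ENSMUSG00000066979), a kinetochore adaptor of the checkpoint kinases, was at 157, 151, 129 and 129.7 CPM in stimulated cKO cells, against 135, 144 and 121 CPM in non-stimulated cKO cells. In control cells Bub3 was at 139, 149, 136, 144 and 125 CPM with stimulation, against 134, 129.8 and 149.7 CPM without it. The libraries overlapped, with log2 fold changes of 0.09 ± 0.10 in cKO cells and 0.0092 ± 0.09 in control cells. The checkpoint kinase genes Bub1, Bub1b and Ttk had log2 fold changes from -0.33 to -0.04 in cKO cells and from -0.20 to -0.11 in control cells.

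In the centromere and kinetochore group 5 of 7 genes fell in each genotype. Cenpa (ENSMUSG00000029177), the histone variant that marks centromeres, was at 99.4, 103, 57.5 and 84.2 CPM in stimulated cKO cells, against 189, 179 and 161 CPM in non-stimulated cKO cells. In control cells Cenpa was at 90.7, 101, 104, 101 and 81.0 CPM with stimulation, against 162, 180.0 and 151 CPM without it. All stimulated libraries were below all non-stimulated ones. Cenpa fell, with a log2 fold change of -1.03 ± 0.15 in cKO cells (edgeR adjusted p = 1.9e-05) and -0.78 ± 0.14 in control cells (adjusted p = 1.9e-04). Cenpe (ENSMUSG00000045328), a kinetochore motor, was at 269.8, 295, 245 and 229.7 CPM in stimulated cKO cells, against 302, 275 and 273 CPM in non-stimulated cKO cells. In control cells Cenpe was at 276, 272, 311, 264 and 242 CPM with stimulation, against 329, 272 and 238 CPM without it. It overlapped between the groups and was not called (log2 fold change -0.12 ± 0.11 in cKO cells and -0.03 ± 0.11 in control cells). The 4 subunits of the NDC80 complex, which binds spindle microtubules, were not alike in calls: Ndc80, Nuf2 and Spc25 fell in both genotypes, with log2 fold changes of -0.45, -0.32 and -0.35 in cKO cells and -0.56, -0.31 and -0.45 in control cells, whereas Spc24 had -0.07 ± 0.11 and -0.10 ± 0.10 and was not called. The Nuf2 call was made under 19 of 25 settings in cKO cells and 18 in control cells, and the Spc25 call under 16 and 22. Whether Spc24 differs from its partners was not tested. Cenpf fell, with a log2 fold change of -0.88 ± 0.17 in cKO cells and -0.62 ± 0.16 in control cells.

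**Figure D2:**
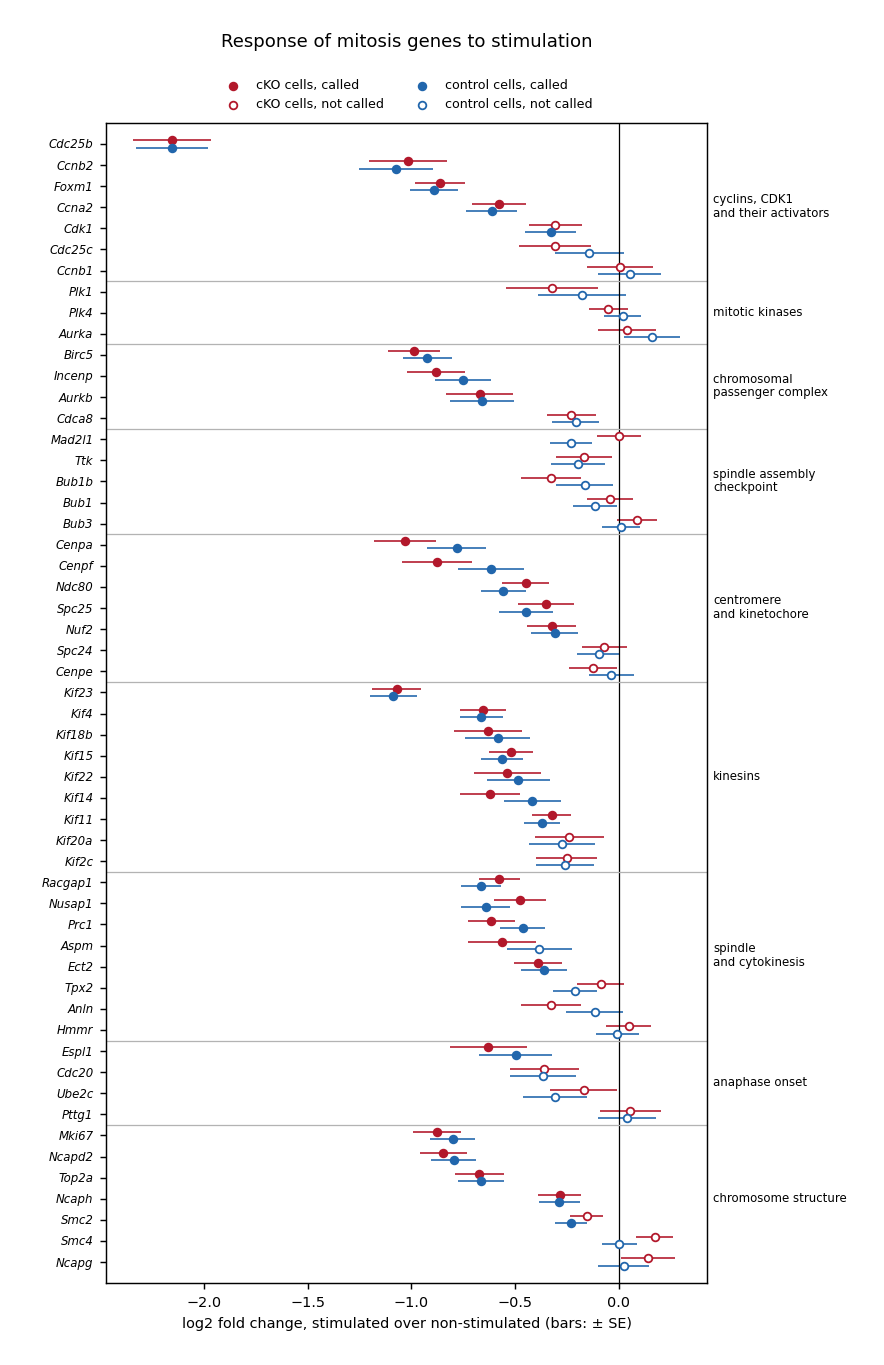
Points are log2 fold changes of each mitosis gene, stimulated over non-stimulated, in cKO cells (red) and control cells (blue), with bars of ± SE; filled points were called by edgeR at an adjusted p under 0.05. Filled points run from Cdc25b at -2.15 in cKO cells and -2.16 in control cells to Ncaph at -0.28 in cKO cells and Smc2 at -0.23 in control cells.

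Of the 9 kinesins 7 fell in each genotype. Kif23 (ENSMUSG00000032254), the motor of the centralspindlin complex at the midzone, was at 112, 113, 92.6 and 89.1 CPM in stimulated cKO cells, against 223, 234 and 184 CPM in non-stimulated cKO cells. In control cells Kif23 was at 90.6, 105, 117, 109 and 90.95 CPM with stimulation, against 216, 242 and 195 CPM without it. The groups were separate in both genotypes. Kif23 fell, with a log2 fold change of -1.07 ± 0.12 in cKO cells (edgeR adjusted p = 9.3e-07) and -1.09 ± 0.11 in control cells (adjusted p = 3.9e-07). Kif2c (ENSMUSG00000028678), a microtubule depolymerase of centromeres, was at 52.3, 47.9, 32.6 and 40.0 CPM in stimulated cKO cells, against 56.9, 54.2 and 43.4 CPM in non-stimulated cKO cells. In control cells Kif2c was at 45.4, 46.0, 47.9, 40.5 and 36.3 CPM with stimulation, against 51.8, 58.4 and 45.2 CPM without it. This gene and Kif20a, a kinesin of cytokinesis, were the 2 kinesins not called (log2 fold changes -0.25 ± 0.15 and -0.24 ± 0.17 in cKO cells, -0.26 ± 0.14 and -0.27 ± 0.16 in control cells). The other kinesins that fell were Kif4, Kif11, Kif14, Kif15, Kif18b and Kif22, with log2 fold changes from -0.66 to -0.32 in cKO cells and from -0.66 to -0.37 in control cells. Kif11, which pushes spindle poles apart, had the smallest change of them in each genotype.

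Of the 8 spindle and cytokinesis genes 5 fell in cKO cells and 4 in control cells. Racgap1 (ENSMUSG00000023015), the partner of KIF23 in centralspindlin, was at 155, 153, 114 and 131 CPM in stimulated cKO cells, against 209.6, 218 and 191 CPM in non-stimulated cKO cells. In control cells Racgap1 was at 142, 151, 141, 146 and 129 CPM with stimulation, against 234, 216 and 224 CPM without it. No values overlapped. Racgap1 fell, with a log2 fold change of -0.58 ± 0.10 in cKO cells (edgeR adjusted p = 1.1e-04) and -0.66 ± 0.09 in control cells (adjusted p = 1.5e-05). Hmmr (ENSMUSG00000020330), a spindle protein and hyaluronan receptor, was at 168, 168, 139.8 and 141 CPM in stimulated cKO cells, against 166, 153 and 129 CPM in non-stimulated cKO cells. In control cells Hmmr was at 153, 159, 156, 156 and 133 CPM with stimulation, against 171, 147 and 138 CPM without it. It was not called (log2 fold change 0.05 ± 0.11 in cKO cells and -0.0058 ± 0.10 in control cells). The midzone bundler Prc1, the microtubule binder Nusap1 and the cytokinesis gene Ect2 fell in both genotypes, with log2 fold changes from -0.61 to -0.39 in cKO cells and from -0.64 to -0.36 in control cells. Anln (ENSMUSG00000036777), anillin of the contractile ring, was at 61.4, 65.3, 49.7 and 54.6 CPM in stimulated cKO cells, against 82.6, 68.1 and 66.4 CPM in non-stimulated cKO cells. In control cells Anln was at 53.5, 62.2, 61.9, 66.7 and 52.4 CPM with stimulation, against 65.7, 79.5 and 47.8 CPM without it. The cKO groups did not overlap, the control groups did, with non-stimulated control replicate 3 the lowest library of all, and the gene was not called in either (log2 fold change -0.32 ± 0.14 in cKO cells and -0.12 ± 0.14 in control cells). Tpx2, which activates Aurora A, was not called either.

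At anaphase onset 1 of 4 genes, Espl1, fell in each genotype. That is near the share of all genes tested called lower, 27.1% in cKO cells and 25.2% in control cells. Espl1 (ENSMUSG00000058290), separase, the protease that cuts cohesin, was at 77.3, 66.4, 37.0 and 58.2 CPM in stimulated cKO cells, against 102, 94.4 and 81.0 CPM in non-stimulated cKO cells. In control cells Espl1 was at 64.9, 67.1, 68.3, 57.8 and 51.2 CPM with stimulation, against 87.8, 99.96 and 74.0 CPM without it. The groups did not overlap. Its log2 fold change was -0.63 ± 0.18 in cKO cells (edgeR adjusted p = 0.0091) and -0.50 ± 0.18 in control cells (adjusted p = 0.027), and the control call was made under 17 of 25 settings. Pttg1 (ENSMUSG00000020415), securin, the inhibitor of separase, was at 13.0, 11.4, 9.11 and 8.82 CPM in stimulated cKO cells, against 11.3, 9.77 and 9.53 CPM in non-stimulated cKO cells. In control cells Pttg1 was at 10.00, 9.62, 10.4, 9.98 and 8.38 CPM with stimulation, against 10.1, 8.42 and 9.69 CPM without it. It was the least abundant of the 54 genes by CPM and was not called (log2 fold change 0.06 ± 0.15 in cKO cells, 95% interval -0.25 to 0.36; 0.04 ± 0.14 in control cells, 95% interval -0.26 to 0.33). Cdc20 (ENSMUSG00000006398), the activator of the anaphase-promoting complex, was at 69.5, 57.4, 37.3 and 46.7 CPM in stimulated cKO cells, against 69.7, 71.1 and 62.4 CPM in non-stimulated cKO cells. In control cells Cdc20 was at 58.3, 54.1, 61.8, 47.1 and 40.3 CPM with stimulation, against 68.7, 66.2 and 66.9 CPM without it. Control libraries did not overlap and cKO libraries did, and neither difference was called (log2 fold change -0.36 ± 0.17 in cKO cells, edgeR adjusted p = 0.081; -0.36 ± 0.16 in control cells, adjusted p = 0.068). Ube2c, the ubiquitin-conjugating enzyme of that complex, had log2 fold changes of -0.17 ± 0.16 and -0.31 ± 0.15 and was not called.

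In the chromosome structure group 4 of 7 genes fell in cKO cells and 5 in control cells. Mki67 (ENSMUSG00000031004), the protein that coats mitotic chromosomes, was at 1452, 1638, 1389 and 1452 CPM in stimulated cKO cells, against 2825, 2723 and 2617 CPM in non-stimulated cKO cells. In control cells Mki67 was at 1459.7, 1458, 1797, 1709 and 1505 CPM with stimulation, against 3161, 2829 and 2296 CPM without it. Every stimulated library was lower. Mki67 fell, with a log2 fold change of -0.88 ± 0.11 in cKO cells (edgeR adjusted p = 5.1e-06) and -0.80 ± 0.11 in control cells (adjusted p = 7.8e-06). Top2a, the topoisomerase that untangles sister chromatids, fell, with a log2 fold change of -0.67 ± 0.12 in cKO cells and -0.66 ± 0.11 in control cells. Ncapg (ENSMUSG00000015880), a HEAT-repeat subunit of condensin I, was at 175, 225, 243 and 175 CPM in stimulated cKO cells, against 171, 213 and 171 CPM in non-stimulated cKO cells. In control cells Ncapg was at 175, 223, 192, 222 and 217 CPM with stimulation, against 200.4, 182 and 225 CPM without it. The libraries overlapped widely, and the gene was not called (log2 fold change 0.14 ± 0.13 in cKO cells and 0.02 ± 0.12 in control cells). Smc4 (ENSMUSG00000034349), the ATPase shared by both condensins, was at 486, 562, 571 and 478 CPM in stimulated cKO cells, against 462, 486 and 445 CPM in non-stimulated cKO cells. In control cells Smc4 was at 492, 531, 519, 527 and 533 CPM with stimulation, against 564, 472 and 521 CPM without it. Smc4 was not called (log2 fold change 0.17 ± 0.09 in cKO cells and 0.0039 ± 0.09 in control cells), though without stimulated cKO replicate 4 it was called higher in cKO cells at 0.24 (edgeR adjusted p = 0.0436). The condensin I subunit Ncapd2, in contrast, fell, with a log2 fold change of -0.84 ± 0.11 in cKO cells and -0.79 ± 0.11 in control cells, and Ncaph fell with -0.28 ± 0.10 in cKO cells and -0.29 ± 0.10 in control cells. The Ncaph call was made under 15 of 25 settings in cKO cells and 18 in control cells.

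Relatives within the set could be compared as ratios within a library, which need no scaling between libraries. These pairs were picked after their values were seen, so the ratios are given without a test. Cdc25b over Cdc25c ran from 3.35 to 4.51 in stimulated cKO cells, against 12.2 to 14.9 in non-stimulated cKO cells, and from 3.05 to 4.04 in stimulated control cells, against 11.3 to 16.6 in non-stimulated control cells. Ccnb2 over Ccnb1 ran from 0.374 to 0.518 in stimulated cKO cells, against 0.839 to 0.989 in non-stimulated cKO cells, and from 0.336 to 0.490 in stimulated control cells, against 0.792 to 0.990 in non-stimulated control cells. Aurkb over Aurka ran from 0.870 to 0.955 in stimulated cKO cells, against 1.38 to 1.71 in non-stimulated cKO cells, and from 0.857 to 0.970 in stimulated control cells, against 1.51 to 1.66 in non-stimulated control cells. For each pair the stimulated and non-stimulated ranges were separate in both genotypes. A ratio shows that the 2 genes changed unequally and not which of them moved. Ccnb2 (ENSMUSG00000032218), the second mitotic cyclin B, was at 80.3, 57.9, 46.2 and 52.7 CPM in stimulated cKO cells, against 132, 113 and 114 CPM in non-stimulated cKO cells. In control cells Ccnb2 was at 58.5, 58.7, 69.5, 58.0 and 37.5 CPM with stimulation, against 124, 132 and 99.98 CPM without it. Its log2 fold change was -1.02 ± 0.19 in cKO cells (edgeR adjusted p = 3.1e-04) and -1.07 ± 0.18 in control cells (adjusted p = 1.2e-04). The pseudogene rows Ccnb1-ps and Ccnb2-ps averaged 0.551 and 0.0969 CPM, and how reads shared between each cyclin and its pseudogene were assigned was not tested.

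**Figure D3:**
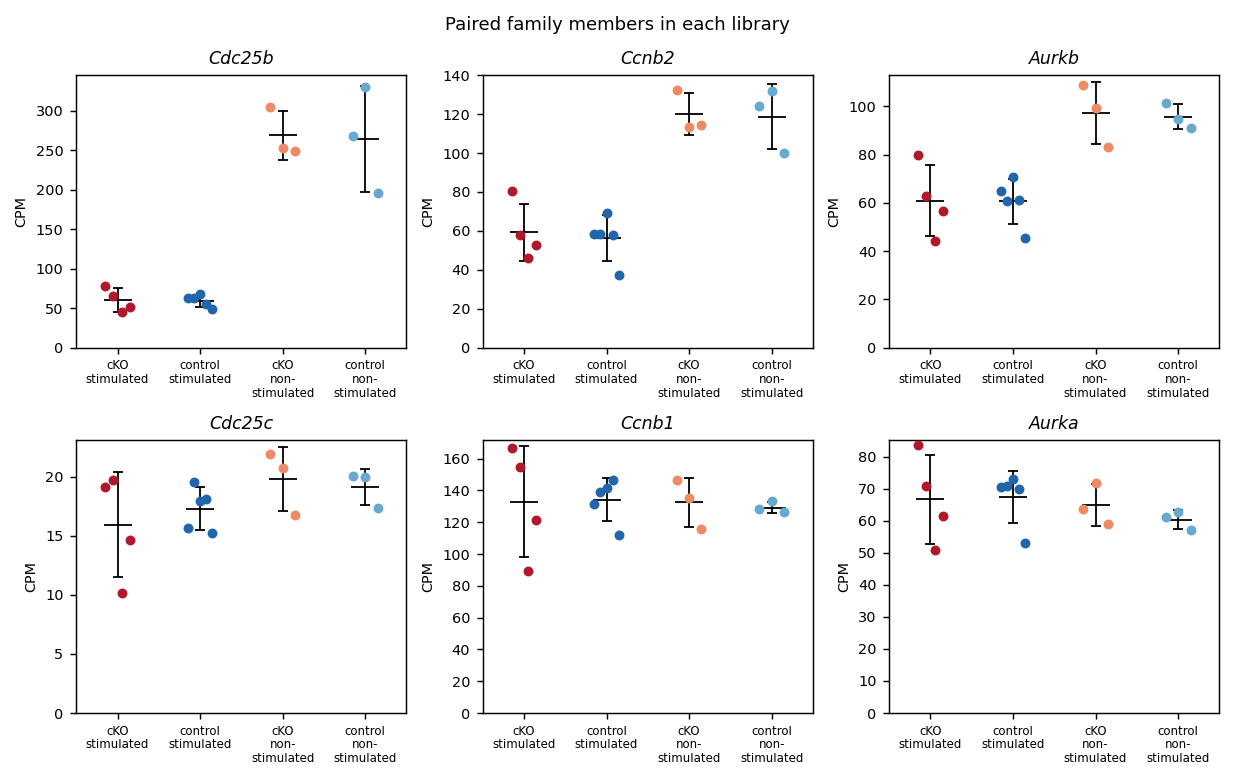
CPM of 3 pairs of relatives in each library (points), with the mean and SD of each group (bars); axes start at 0. The upper genes, Cdc25b, Ccnb2 and Aurkb, are lower in both stimulated groups, while the lower genes, Cdc25c, Ccnb1 and Aurka, overlap between stimulated and non-stimulated groups in each genotype.

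The 54 genes also moved together from library to library within a group. In stimulated cKO cells 6, 3, 48 and 49 of the 54 genes were below their group mean in replicates 1 to 4. In stimulated control cells 30, 10, 6, 17 and 50 of them were below it in replicates 1 to 5. In non-stimulated cells 5, 23 and 52 were below it in cKO replicates 1 to 3, and 9, 18 and 49 in control replicates 1 to 3. Thus 5 libraries, stimulated cKO replicates 3 and 4, stimulated control replicate 5 and both non-stimulated replicates 3, were low for nearly all of the genes. The median deviation of the 54 genes was -0.24, -0.12, -0.22, -0.11 and -0.13 in those 5 libraries on the log2 scale. That over all genes tested was between -0.0067 and 0.01 in every library, but the scaling and the centring on group means make it small by construction. Whether other genes of like abundance moved together in this way was not tested. Stimulated cKO replicate 3, the lowest, also had the largest share of mitochondrially encoded RNA (9.43%), and stimulated cKO replicate 4 had the next (6.24%). Their part in the low values was not tested. Without stimulated cKO replicate 3 or without replicate 4, as for each of the 15 libraries left out in turn, the count of genes that fell stayed between 25 and 34 in cKO cells and between 22 and 33 in control cells.

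Genes differed in how much they varied within groups. The pooled SD of log2 CPM within groups was 0.33 for Plk1, 0.29 for Ccnb2 and Espl1, 0.28 for Cdc25b and 0.27 for Cdc25c. It was 0.08 for Smc2, 0.10 for Smc4 and 0.11 for Kif11 and Plk4. The median over the 54 genes was 0.18, that over all genes tested 0.22, and that over the 8697 genes at least as abundant as the least abundant of the 54 was 0.15. Per length, mean levels in non-stimulated control cells ran from 12.2 TPM for Kif14 to 293 TPM for Top2a, with Mki67 at 252 TPM and Ube2c at 217 TPM.

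**Figure D4:**
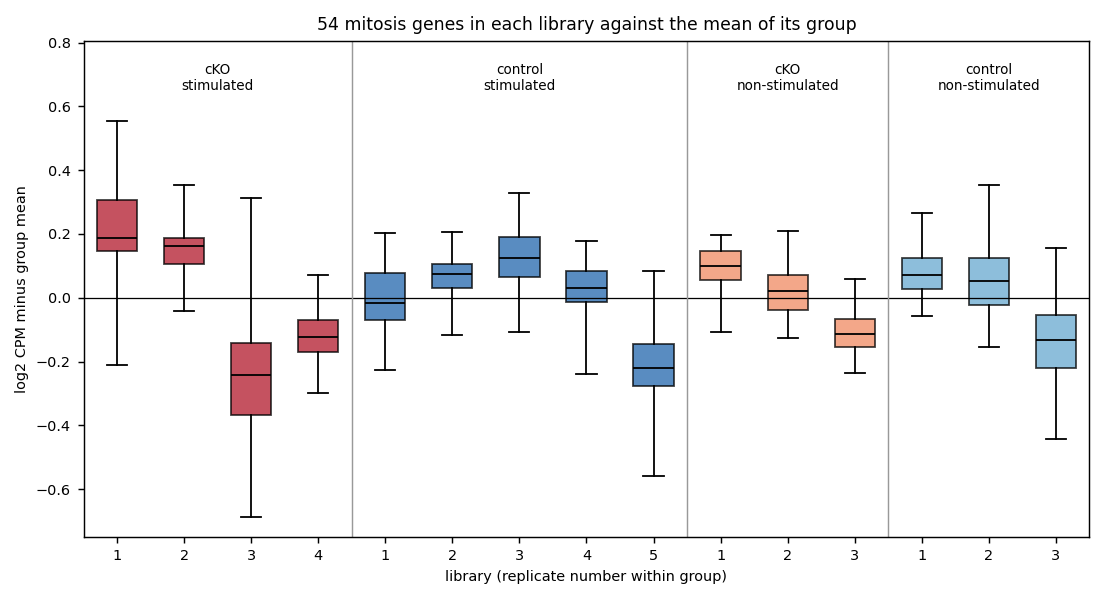
Each box shows the deviations of the 54 mitosis genes in 1 library from the mean log2 CPM of its group, with the median, quartiles and full range. Stimulated cKO replicates 3 and 4, stimulated control replicate 5 and both non-stimulated replicates 3 have their boxes below 0, with medians of -0.24, -0.12, -0.22, -0.11 and -0.13.

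The cKO and control genotypes were compared in each condition. Without stimulation the difference in Asb2 itself was not called, so that comparison is one of genotypes and not of shown loss of the transcript. No mitosis gene was called between cKO and control cells, with or without stimulation. After stimulation edgeR called 0 of the 54 genes (DESeq2 also 0), against 0.0064% of all genes tested called lower and 0% called higher, and 1 of them had an unadjusted p under 0.05, against 1.81% of all genes tested. The median log2 fold change of the 54 genes was -0.0087, with a range of -0.15 to 0.20, and their 95% intervals all lay between -0.44 and 0.43. With 1 library left out this median ran from -0.0874 (without stimulated cKO replicate 1) to 0.0585 (without stimulated cKO replicate 3). No gene had groups that did not overlap, against 0.352% of all genes tested on the lower and 0.307% on the higher side. The gene with an unadjusted p under 0.05 was Mad2l1, with a log2 fold change of 0.20 ± 0.09 (95% interval 0.0025 to 0.39, edgeR adjusted p = 1), from the values given above, in which stimulated cKO replicate 3 was the highest. Next by p came Cenpa (-0.15 ± 0.13) and Pttg1 (0.13 ± 0.13), neither of which was called.

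Without stimulation edgeR and DESeq2 again called 0 of the 54 genes, against 0% of all genes tested in either direction with edgeR, and 0 had an unadjusted p under 0.05, against 2.57% of all genes tested. The median log2 fold change was 0.0066, the range -0.16 to 0.17, and the 95% intervals lay between -0.42 and 0.64. No gene had separate groups, against 3.49% of all genes tested on the lower and 4.37% on the higher side. The smallest p belonged to Smc4 (log2 fold change -0.16 ± 0.10), Racgap1 (-0.13 ± 0.11) and Anln (0.17 ± 0.16), with edgeR adjusted p values of 1. A difference as large as the fall of Cdc25b on stimulation, the largest of the 54 genes, lay outside the 95% interval of every gene in both conditions. The median stimulation changes of the 54 genes were far smaller, -0.34 in cKO cells and -0.36 in control cells. Genotype differences of that size lay inside some intervals, such as those of Plk1 after stimulation (-0.43 to 0.40) and Ube2c without it (-0.42 to 0.31).

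**Figure D5:**
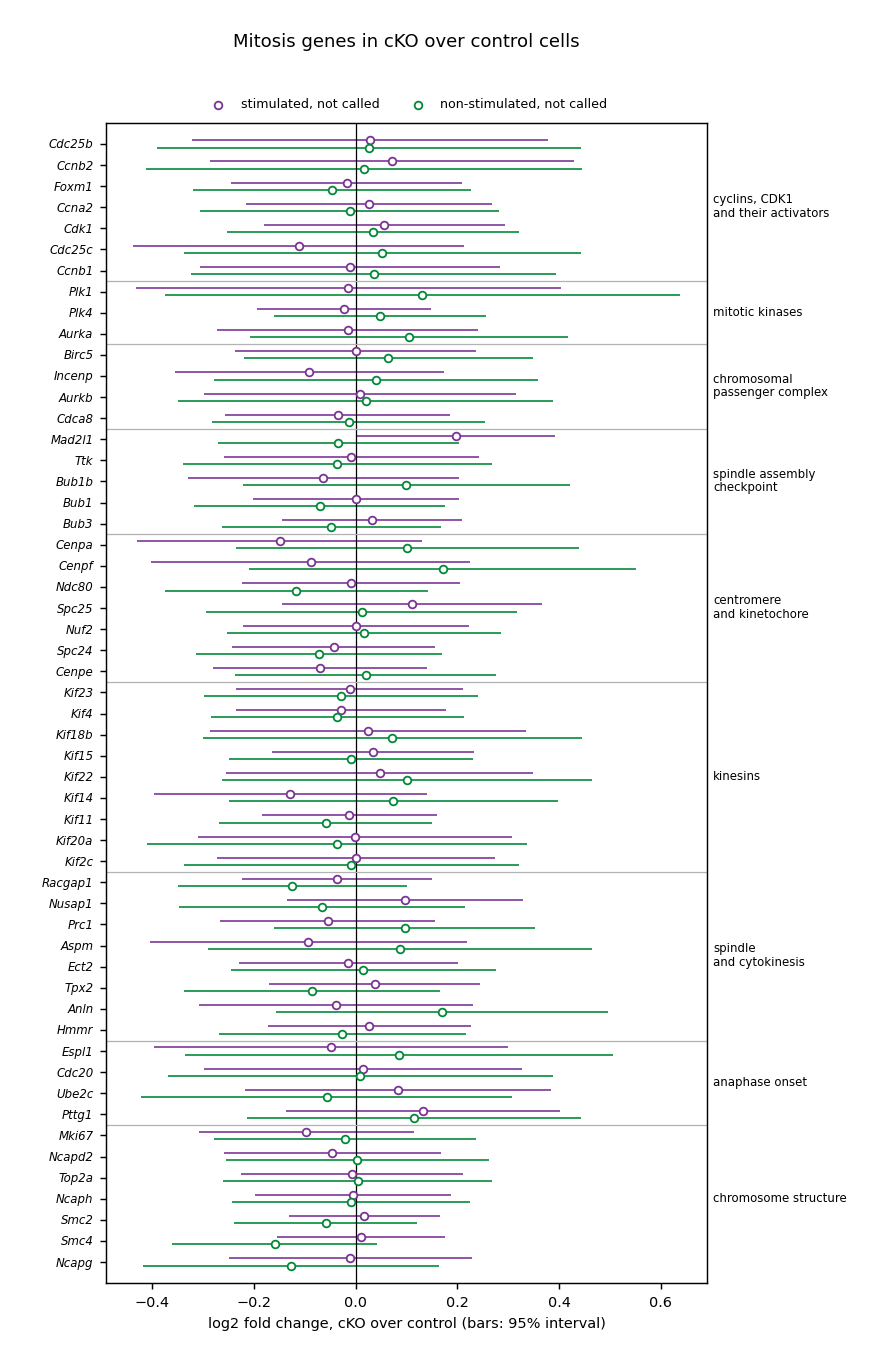
Points are log2 fold changes of each mitosis gene, cKO over control, in stimulated cells (purple) and non-stimulated cells (green), with bars for 95% intervals; open points were not called. The points lie between -0.16 and 0.20, and of the intervals that of Mad2l1 in stimulated cells leaves out 0.

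The difference between the stimulation responses of the genotypes (interaction) was tested directly. It was called for 0 of the 54 genes by edgeR and by DESeq2, against 0% of all genes tested with edgeR, and 0 had an unadjusted p under 0.05, against 3.87%. The interaction log2 fold change had a median of 0.004 and ran from -0.26 for Cenpf to 0.23 for Mad2l1, with 95% intervals between -0.80 and 0.61. Mad2l1, Smc4 (0.17 ± 0.12) and Cenpa (-0.25 ± 0.21) had the smallest p, each with an edgeR adjusted p of 0.997. The calls of Aspm in cKO cells alone and of Cdk1 and Smc2 in control cells alone are therefore not shown to differ between genotypes.

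Genes next to these in the pathway were counted from 7 further lists with 152 genes, of which each was tested. These lists, too, were chosen with earlier results of these data known. Among all genes tested 27.1% were called lower and 26.7% higher in cKO cells, and 25.2% lower and 25.4% higher in control cells. Of 31 other kinetochore and centromere genes 13 fell and 3 rose in cKO cells, and 14 fell and none rose in control cells, with median log2 fold changes of -0.21 and -0.32. Cenpn, a reader of centromeric chromatin, had -0.85 ± 0.11 in cKO and -1.06 ± 0.11 in control cells, the kinetochore scaffold Knl1 -0.76 ± 0.09 and -0.69 ± 0.09, and Cenpp -0.71 ± 0.13 and -0.89 ± 0.13. Of 20 other spindle and cytokinesis genes 12 fell and 1 rose in cKO cells, and 10 fell and 1 rose in control cells. Numa1, which anchors spindle poles, had -0.74 ± 0.09 and -0.65 ± 0.09, Kif2a -0.32 ± 0.07 and -0.52 ± 0.07, and the centrosomal kinase gene Nek2 -0.73 ± 0.14 and -0.69 ± 0.14. Of 14 cohesin and condensin II genes 7 fell and 1 rose in cKO cells, and 9 fell and 1 rose in control cells, among them the cohesin loader Mau2 (-0.60 ± 0.08 and -0.49 ± 0.08), Ncapg2 (-0.46 ± 0.08 and -0.44 ± 0.07) and Ncaph2 (-0.64 ± 0.13 and -0.70 ± 0.13).

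Of 17 genes of the anaphase-promoting complex and its regulators 6 fell and 5 rose in cKO cells, and 6 fell and 4 rose in control cells. The inhibitor gene Fbxo5 had -0.48 ± 0.10 in cKO and -0.64 ± 0.09 in control cells, while the subunit genes Cdc16 (0.46 ± 0.08 and 0.48 ± 0.08) and Anapc4 (0.40 ± 0.08 and 0.45 ± 0.08) rose. Of 16 genes of G2 control 4 fell and 5 rose in cKO cells, and 4 fell and 6 rose in control cells. The highest log2 fold change among them was 2.75 in cKO cells and 2.36 in control cells. Ccng2, a cyclin of resting cells, had -1.57 ± 0.13 and -1.56 ± 0.12, the antiproliferative gene Btg2 -0.89 ± 0.10 and -1.16 ± 0.10, and Wee1, whose kinase holds CDK1 inactive, -0.81 ± 0.09 and -0.85 ± 0.09. The genes of WEE1 and of its opponent CDC25B therefore both fell. Of 18 MuvB and E2F regulators 8 fell and 3 rose in cKO cells, and 9 fell and 2 rose in control cells, among them E2f2 (-1.38 ± 0.15 and -1.53 ± 0.14), Tfdp2 (-0.58 ± 0.11 and -0.74 ± 0.10) and E2f7 (-0.87 ± 0.10 and -0.68 ± 0.10). The highest log2 fold change in that list was 2.02 in cKO cells and 1.42 in control cells.

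DNA replication genes had 8 lower and 7 higher of 36 in cKO cells and 6 lower and 8 higher in control cells, with medians of -0.10 and -0.05. Orc1, a subunit of the origin recognition complex, rose, with a log2 fold change of 1.14 ± 0.13 in cKO and 1.14 ± 0.13 in control cells. Mcm6, of the replicative helicase, had -0.53 ± 0.09 and -0.65 ± 0.08, and Cdt1, which loads it, -0.65 ± 0.11 and -0.75 ± 0.10. Beside them, the 54 mitosis genes had 29 lower and 0 higher in cKO cells and 30 lower and 0 higher in control cells. The difference between the lists was not tested. A CHR was found in the promoter windows of 84.4% of the mitosis genes, against 28.6% of the replication genes, 48.1% of the other kinetochore genes, 41.2% of the other spindle genes, 50% of the MuvB and E2F regulators, 36.4% of the cohesin and condensin II genes, 21.4% of the G2 genes and 18.8% of the genes of the anaphase-promoting complex.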

How the data were processed

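RNA was measured in 15 libraries, made per the labels' protocols with a stranded total RNA kit with ribosomal RNA depletion. The deposited estimated counts are not scaled between samples (9.42% of values were not whole), and the deposited TPM values were scaled within each library by the authors. The build GRCm39 and the tools Salmon 1.10.1, STAR 2.7.9a and cutadapt 3.4 are named, per the submitters' processing notes, with no order or role given.

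Estimated counts were rounded to whole numbers, filtered with filterByExpr (15619 of 56748 genes kept), scaled with TMM factors and fitted with edgeR 4.0.16 in R 4.3.3, with 1 mean per group over all 15 libraries and robust quasi-likelihood dispersion; the biological coefficient of variation was 15.4%. The fit was also run on simulated data, and the outcome is not reported here. Tests were two-sided, with Benjamini-Hochberg adjustment over all genes tested, for 5 comparisons. The labels do not say that libraries came from separate animals, so p-values measure the spread between these libraries. Log2 CPM values for deviations and the heat map used a prior count of 2. Alternatives used DESeq2 1.42.0, limma 3.58.1 and the other settings of the closing section.

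The genes and lists were chosen with earlier results of these data known. Values in every library are given for the genes with the lowest and highest log2 fold change of stimulation in control cells in each role, for Mki67, Ccnb1, Cdk1, Plk1, Aurkb, Cdc20 and Foxm1, and for the 3 genes with the smallest p in each genotype comparison and the interaction. The same values are given for Ccnb2, which was chosen after its values were seen. From each further list the 3 genes with the smallest p in control cells are named. Promoter sequences are RefSeq's, of build GRCm38.p6, not the build of the counts.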

Additional observations from a re-analysis of the deposited data

Results flagged for a closer look

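In stimulated control cells replicate 5 stood apart from the other 4 libraries for 3 genes. Aurka was at 53.0 CPM, against 70.0 to 72.9 CPM in the others, Bub1 at 63.4 CPM, against 75.3 to 79.7 CPM, and Hmmr at 132.6 CPM, against 153 to 159 CPM. The gap to the nearest library, as a share of the group's range, passed Dixon's limit at 95%. Of 110 groups examined in stimulated cells 3 were marked, where chance marks about 5%. In the same library 50 of the 54 mitosis genes were below their group mean.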

How the results depend on the processing

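The counts of mitosis genes that fell were recomputed under 9 alternatives and with each of 15 libraries left out. Called lower in cKO cells were 29 genes in the reported fit and between 25 and 34 with 1 library left out; in control cells these were 30 and between 22 and 33. The count in control cells was 13 with limma on log2(TPM + 0.1) and 13 with log2(TPM + 1), where all genes tested called lower numbered 2108 and 2117 in place of 3936, and the cause was not tested. In cKO cells genes called higher were 2583 and 2526 on those scales in place of 4171. Of the 54 genes 0 were called higher in cKO cells, and 0 to 1 (Smc4) with 1 library left out. Between genotypes and for the interaction 0 of the 54 were called under each alternative that was run. Over all genes, DESeq2 called 4 lower and 1 higher after stimulation, 3 lower and 1 higher without it, and 2 higher for the interaction, in place of 1, 0, 0, 0 and 0. Without stimulation 1 gene was called lower with no filter on low counts, 0 to 1 with 1 library left out, and 3 higher with log2(TPM + 1), which also called 2 lower for the interaction. The interaction needs all groups, so a fit on only the groups compared gave no other value.

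Of 2592 stimulation log2 fold changes of single genes under other settings, 51 lost and 15 gained a call under the 9 alternatives, 43 lost and 19 gained one with 1 library left out, and no called value changed sign. Called lower in both genotypes in all 25 settings were 13 genes: Aurkb, Birc5, Ccnb2, Cdc25b, Cenpa, Foxm1, Incenp, Kif23, Kif4, Mki67, Ncapd2, Nusap1 and Top2a. With the replicate number as a block 31 genes fell in cKO cells and 25 in control cells, and none of the 54 was called between genotypes. The labels do not say what a number marks. Deviations of same-numbered libraries correlated above 0.1 in 3 of 19 pairs (-0.21 to 0.18), many of which cross genotypes. Between stimulated and non-stimulated libraries of replicates 1, 2 and 3 the correlations were 0.08, 0.096 and 0.11 in cKO cells. In control cells they were 0.078, -0.139 and -0.205. These values cannot settle whether the numbers pair samples, and the reported fit did not pair them. On log2(TPM + 0.1) the median of all genes tested moved to 0.15 between genotypes without stimulation, and that of the 54 genes to 0.16, with none called. The lowest count among the 54 genes was 139.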
